A study of Rattus norvegicus with 38 samples.

Results

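The genes described here act where glucose enters glycolysis, where glycolysis ends, and where glucose is stored in and released from glycogen in the liver. They are Gckr, Pklr, Ugp2, Gys2, Gbe1, Pygl, Ppp1r3b, Ppp1r3c and Ppp1r3g, and they were found by symbol in the deposited tables. All 9 are among the 31038 genes of the count table, and 9 of 9 passed the filter on low counts that left 14786 genes to test. RNA sequencing had been done on 38 rat livers in 8 groups, which cross an intraperitoneal injection of lipopolysaccharide (LPS) with 4 gavage regimens. LPS, a molecule of the bacterial outer membrane, sets off acute inflammation. Per the design text the libraries of a group are biological replicates.

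All rats were Sprague-Dawley, an outbred laboratory strain, and all livers were taken on day 28. LPS_EF_RD rats (n = 5) had LPS with the extracts EF and RD, and EF_RD rats (n = 4) had both extracts without LPS. LPS_EF_PF rats (n = 4) had LPS with the extracts EF and PF, and EF_PF rats (n = 5) had both extracts without LPS. LPS_EF rats (n = 5) had LPS with EF alone, and EF rats (n = 5) had EF alone. LPS rats (n = 5) had LPS and no extract, and control rats (n = 5) are labelled as controls. Extracts went into the stomach at 2.5 g/kg for EF, 2.5 g/kg for PF and 200 mg/kg for RD. The extracts are named by these codes only, and no group had PF or RD without EF. For the LPS dose, its time before collection and the age of the rats, no value was given in the sources used here. The tissue is labelled liver and the cell type hepatocyte, and 10 of 10 hepatocyte markers, Alb among them, were detected in every library. In whole liver RNA, fewer cells of a type and less RNA per cell cannot be told apart. A library is named below by its group and replicate number, so that EF 2 is replicate 2 of EF.

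Glucose that enters a hepatocyte is phosphorylated by a hexokinase that the protein made from Gckr holds inactive in the nucleus until sugar levels rise. From glucose phosphate the cell can run glycolysis, whose last step is catalysed by pyruvate kinase, or it can store the sugar as glycogen. For storage, Ugp2 makes UDP-glucose, Gys2, the liver glycogen synthase, joins it into chains, and Gbe1 adds the branches. Pygl, the liver glycogen phosphorylase, takes glucose units off again. Ppp1r3b, Ppp1r3c and Ppp1r3g encode subunits that carry protein phosphatase 1 to glycogen, where it activates the synthase and inactivates the phosphorylase.

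Levels between genes were compared in TPM, a share of all transcripts that divides by gene length. Over the 38 libraries the median level was 318 TPM for Ugp2, 177 for Pygl, 154 for Gckr, 121 for Pklr, 116 for Gbe1, 67.3 for Gys2, 65.4 for Ppp1r3c and 33.7 for Ppp1r3b. Ppp1r3g stood far below the rest, at a median of 0.281 TPM and with 0 to 229 read pairs per library. The least counted of the other members, Ppp1r3c, had 726 read pairs in its lowest library. On the rn6 build named in the count file's header, Gckr spans chr6:26355296-26385761, Pklr chr2:188449158-188458034, Ugp2 chr14:106208174-106249322, Gys2 chr4:176638632-176679805 and Gbe1 chr11:7210169-7485895. Pygl spans chr6:92597759-92643734, Ppp1r3b chr16:60415192-60427498, Ppp1r3c chr1:255371830-255376833 and Ppp1r3g chr17:29566032-29570294. Pklr and Gbe1 are on the plus strand and the others on the minus strand, and counted exons of the 9 genes overlapped those of no other gene in that annotation.

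Promoter sequences of 300 bases that span the gene start were matched for 8 of the 9 genes in RefSeq on the GRCr8 build. They were searched on both strands for the E-box CACGTG, which carbohydrate-responsive and other basic helix-loop-helix factors can bind, for the cAMP response element TGACGTCA and for its core TGACG, which the full element contains. The E-box is in 6.42% of 33469 rat promoters of this length and was found in that of Ppp1r3c, 54 to 49 bases before the gene start. The full cAMP response element is in 1.83% of all promoters and was in none of the 8. The core is in 21.2% and was found in those of Gckr, 64 to 60 bases before the start, and Ppp1r3g, 12 to 16 bases after it. The 3 promoters with a match are printed 5′ to 3′ with the matched letters in capitals, since Gckr was the gene called lower with LPS in every gavage regimen and Ppp1r3g the gene called lower in every group set against control. A match describes letters only, and binding was not measured.
Gckr (chr6:30795578-30795877, minus strand): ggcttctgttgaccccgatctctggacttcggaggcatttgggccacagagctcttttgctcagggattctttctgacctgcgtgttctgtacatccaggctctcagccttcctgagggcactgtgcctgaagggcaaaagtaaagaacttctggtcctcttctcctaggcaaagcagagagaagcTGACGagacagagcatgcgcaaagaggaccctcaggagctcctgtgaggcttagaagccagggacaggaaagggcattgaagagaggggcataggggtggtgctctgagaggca
Ppp1r3c (chr1:243878478-243878777, minus strand): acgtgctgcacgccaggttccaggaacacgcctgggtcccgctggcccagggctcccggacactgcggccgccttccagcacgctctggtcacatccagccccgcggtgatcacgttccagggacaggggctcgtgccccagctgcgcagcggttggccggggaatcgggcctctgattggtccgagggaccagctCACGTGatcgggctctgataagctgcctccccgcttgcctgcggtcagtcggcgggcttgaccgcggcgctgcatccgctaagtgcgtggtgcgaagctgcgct
Ppp1r3g (chr17:29083690-29083989, minus strand): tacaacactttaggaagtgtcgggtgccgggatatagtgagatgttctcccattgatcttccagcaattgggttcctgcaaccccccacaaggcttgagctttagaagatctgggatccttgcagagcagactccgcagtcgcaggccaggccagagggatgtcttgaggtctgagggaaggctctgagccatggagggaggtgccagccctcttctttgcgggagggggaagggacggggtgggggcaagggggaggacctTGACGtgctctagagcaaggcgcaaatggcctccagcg

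Libraries held 19716622 to 35835012 counted read pairs. Levels within a gene are given in CPM, the share of all counted read pairs that the gene took, with libraries scaled by TMM, the trimmed mean of M values. Several libraries stood apart. LPS_EF 7 and LPS_EF_RD 6 are labelled as LPS libraries, but the acute-phase gene Lbp had 252 and 256 CPM there, against 2136 to 3795 CPM in the other LPS libraries and 86.6 to 463 CPM in libraries without LPS. A2m, another acute-phase gene, had 5.84 and 6.90 CPM in those 2 libraries, against 84.2 to 344 CPM in the other LPS libraries. EF 1 and EF_RD 1, both without LPS, had the highest A2m of their side, at 17.2 and 19.03 CPM. The next was EF 5, at 3.51 CPM. Lbp without LPS was likewise highest in EF_RD 1 (463 CPM), EF 1 (423 CPM) and EF 5 (334 CPM), and at most 175 CPM in the rest. LPS_EF 7 and LPS_EF_RD 6 thus lay above most libraries without LPS in both genes, though far below the other LPS libraries. EF_RD 1 and LPS 3 carried skeletal muscle RNA, with 12 markers summing to 4287 and 417 CPM, against at most 2.41 CPM elsewhere. Pancreas markers summed to 2981 CPM in control 5, 1724 in LPS 3 and 108 in EF_RD 1, against at most 20.6 CPM elsewhere. Results were therefore also computed without LPS_EF 7 and LPS_EF_RD 6, and without EF_RD 1, LPS 3 and control 5, and are given below where a call changed. All remaining libraries were fitted together, so a call can change where no omitted library belongs to the groups compared.

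**Figure D1:**
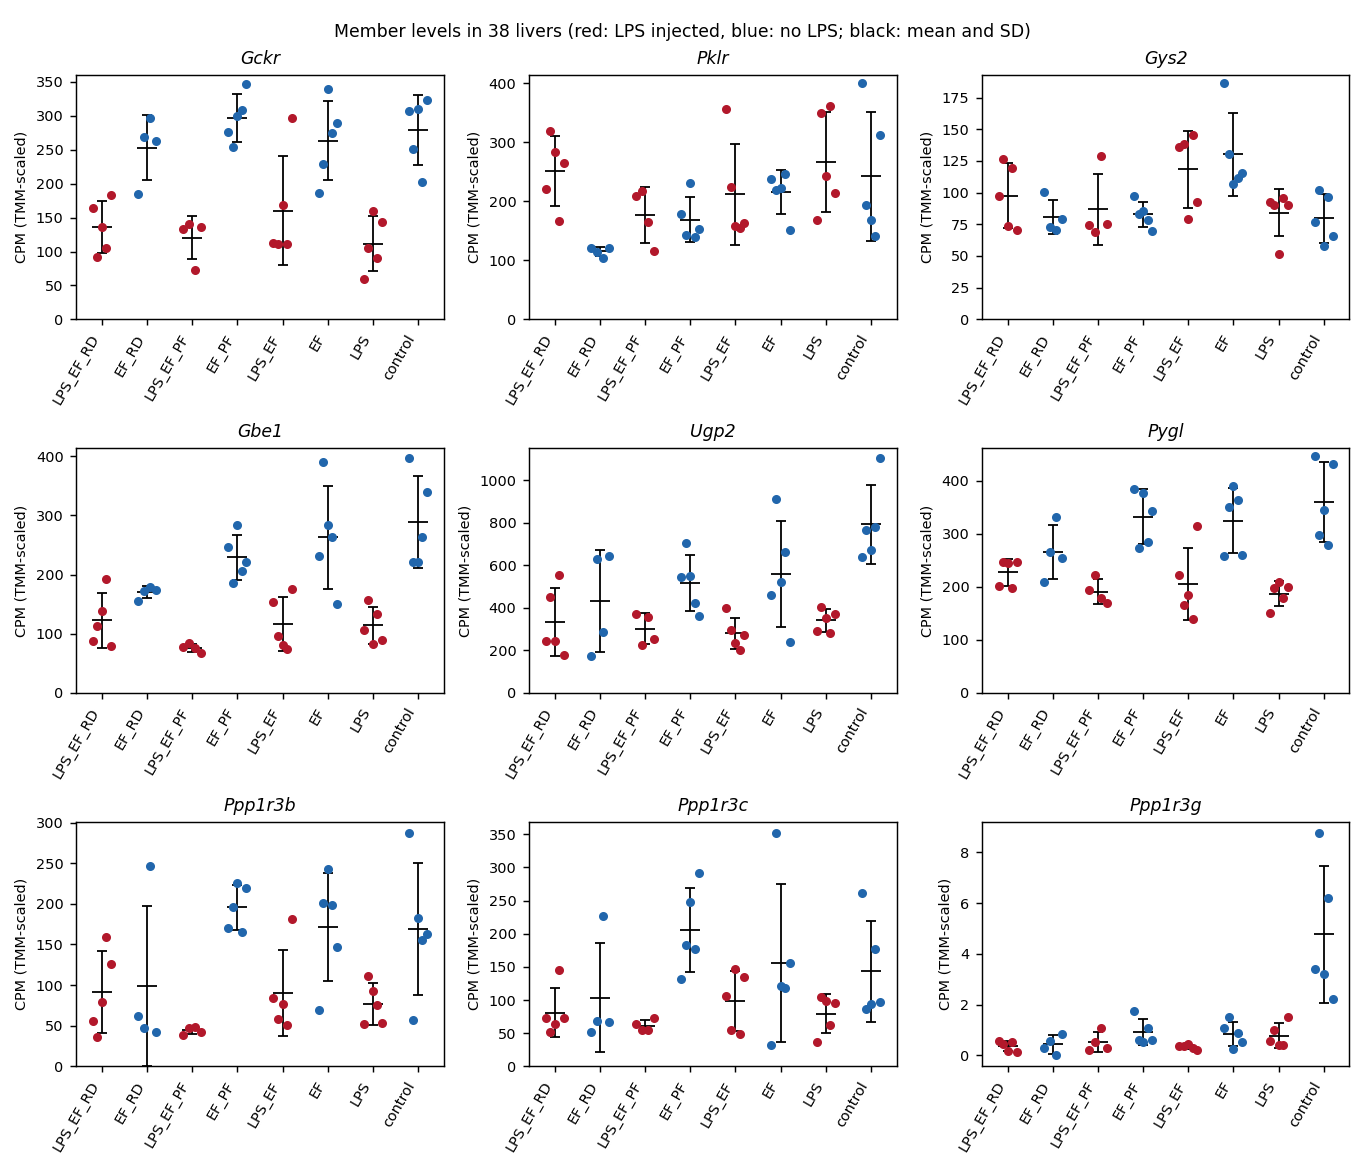
Level of each of the 9 genes in every library, in TMM-scaled CPM, by group, with LPS libraries in red and the others in blue; black marks give the mean and SD. Gckr, Gbe1, Ugp2 and Pygl were lower in LPS than in control livers with no overlap, whereas Gys2 overlapped and was not called. Ppp1r3g reached above 2 CPM in the 5 control livers only.

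In LPS livers against control, the genes of UDP-glucose synthesis, glycogen branching and glycogen breakdown and the regulator of the liver hexokinase were lower, whereas glycogen synthase was not called. Under the extracts, the regulator was called lower in all 3 LPS comparisons and the other 3 genes in 1 or 2 of them. In LPS livers against control, 6 of the 9 genes were called, all lower, at an adjusted p under 0.05 in edgeR's quasi-likelihood test, where 36.8% of all tested genes were called and 18.1% were called lower. In LPS_EF livers against EF, 4 of 9 were called, all lower, against 29.1% of all genes called and 14.5% called lower. In LPS_EF_PF livers against EF_PF, 5 of 9 were called, all lower, against 36.5% and 17.3%. In LPS_EF_RD livers against EF_RD, 1 was called lower and 1 higher, against 23.5% of all genes called, 10.7% lower and 12.8% higher, so that this count is near the background.

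The median log2 fold change over the 9 genes was -0.25 for LPS_EF_RD against EF_RD, -0.80 for LPS_EF_PF against EF_PF, -0.72 for LPS_EF against EF and -1.14 for LPS against control. Over all tested genes the 4 medians lay between -0.022 and -0.002. When libraries were scaled by their total counts, the median gene lay at 0.13 in LPS against control and at 0.14 in LPS_EF_PF against EF_PF, and 72% and 78.5% of the called genes were higher, against 50.6% and 52.6% with TMM. In LPS_EF against EF that share was 67.7% by total counts and 50.2% with TMM, and in LPS_EF_RD against EF_RD it was 64.7% and 54.4%. No called member changed its direction under total counts or under DESeq2-type size factors.

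**Figure D2:**
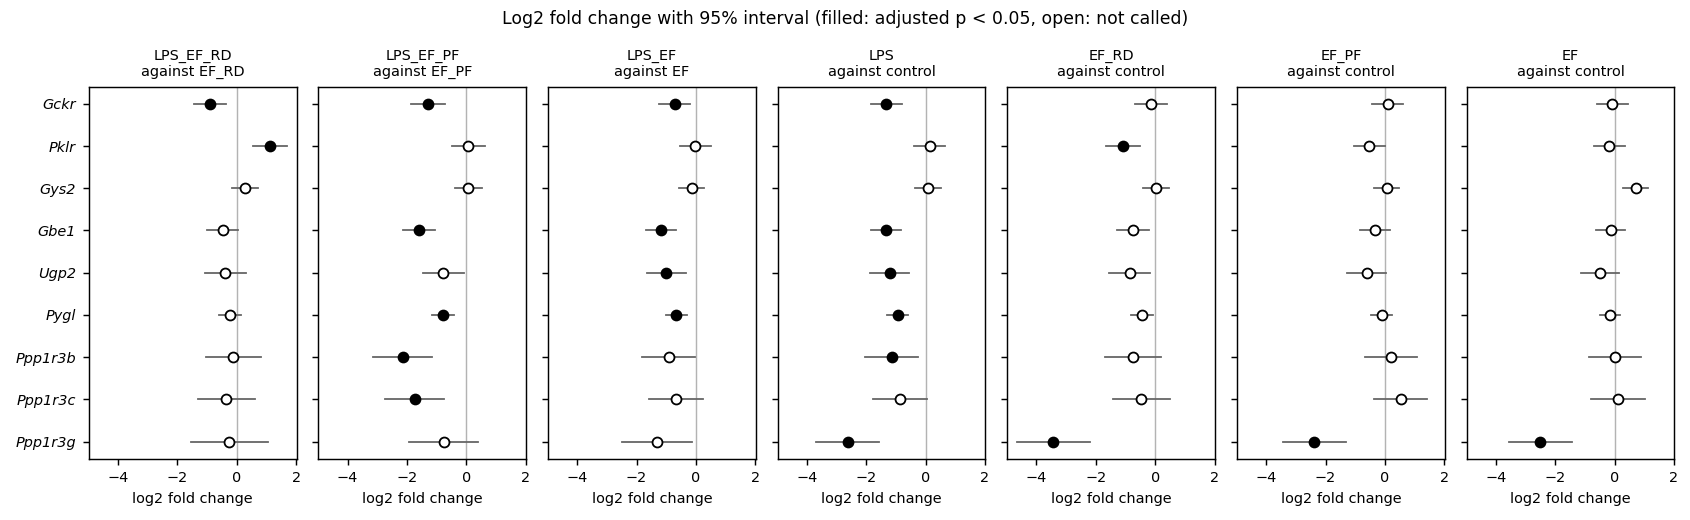
Log2 fold change of each gene with its 95% interval, for the LPS group over its counterpart without LPS in 4 gavage regimens and for each extract regimen over control; filled points have an adjusted p under 0.05. Gckr lies left of 0 and filled in all 4 LPS panels, Pklr is filled on the right in LPS_EF_RD against EF_RD, and Ppp1r3g is filled on the left in all 3 panels without LPS.

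Gckr, whose product restrains the glucose-phosphorylating enzyme, was the one member called lower in all 4 LPS comparisons. It had 59.7, 105, 159, 90.7 and 144 CPM in LPS livers, against 308, 251, 309.8, 202 and 324 CPM in control livers. The groups did not overlap, and Gckr was 2.50-fold lower (log2 fold change -1.32 ± 0.26, SE; adjusted p = 2.02e-04). In LPS_EF_PF livers it had 133, 140.3, 72.5 and 136 CPM, against 276, 254, 299, 309 and 347 CPM in EF_PF livers, again without overlap (log2 fold change -1.30 ± 0.28, adjusted p = 4.78e-04). In LPS_EF_RD livers it had 164, 91.4, 136, 106 and 183 CPM, against 184, 269, 296 and 262 CPM in EF_RD livers, where the highest LPS value lies just under the lowest without LPS (log2 fold change -0.89 ± 0.27, adjusted p = 0.0154). In LPS_EF livers it had 112, 112, 169, 111 and 297 CPM, against 186, 229, 339, 274 and 289 CPM in EF livers (log2 fold change -0.72 ± 0.26, adjusted p = 0.0324). The highest of these LPS_EF values is that of LPS_EF 7, the library with low acute-phase genes, and it lies inside the EF range. The LPS_EF call missed the threshold when any 1 of these libraries was left out, with the adjusted p in brackets: EF 3 (0.0928), EF 4 (0.0586), EF 5 (0.0661), LPS_EF 3 (0.0959), LPS_EF 4 (0.101), LPS_EF 5 (0.0524) and LPS_EF 6 (0.0934); it also did under total-count scaling (0.0626) and when only the 2 groups were fitted (0.108). The LPS_EF call was kept without LPS_EF 7. Over all omissions of 1 library, the log2 fold change of Gckr in LPS_EF against EF ran from -1.07 to -0.61. The adjusted p ran from 9.41e-04 to 0.101. The LPS_EF_RD call was lost without EF_RD 3 (0.0515) and LPS_EF_RD 2 (0.05005).

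Pklr, which encodes the pyruvate kinase of liver and red cells, was not called in 3 of the LPS comparisons and was called higher in the fourth. It had 220.4, 320.1, 284, 167 and 265 CPM in LPS_EF_RD livers, against 122, 114, 104 and 121 CPM in EF_RD livers. Every LPS_EF_RD value exceeded every EF_RD value (log2 fold change 1.13 ± 0.28, adjusted p = 0.00414). The EF_RD values are the lowest of the 8 groups, with a mean of 115 ± 8.26 CPM (SD, n = 4), and their range does not overlap that of the next group up, EF_PF, at 169 ± 38.4 CPM (n = 5). EF_RD livers also lay below the control livers, which had 400.1, 193, 168, 141 and 312 CPM (log2 fold change -1.08 ± 0.28, adjusted p = 0.0392). Both comparisons share the 4 EF_RD libraries. The call against control was lost without control 3 (0.158), control 7 (0.0985), EF_RD 1 (0.112), EF_RD 2 (0.0723), EF_RD 3 (0.0781) and EF_RD 4 (0.0701), adjusted p in brackets, and in 5 of the other fits, with adjusted p between 0.0637 under total-count scaling and 0.165 with only the 2 groups fitted; without EF_RD 1, LPS 3 and control 5 it was 0.0988. In LPS against control, Pklr had 168, 349, 242, 362 and 214 CPM in LPS livers and the control values above, with a log2 fold change of 0.14 ± 0.26 (adjusted p = 0.711, 95% interval -0.38 to 0.66). Its value turned slightly negative without control 6 (-0.02).

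On the glycogen synthesis side, Ugp2 was called lower in 2 of the 4 LPS comparisons and Gbe1 in 3. Ugp2, which makes UDP-glucose, had 291, 405, 354, 283 and 369.8 CPM in LPS livers, against 639, 767, 671, 778 and 1104 CPM in control livers. All LPS values lay under all control values, and Ugp2 was 2.32-fold lower (log2 fold change -1.22 ± 0.32, adjusted p = 0.00340). In LPS_EF livers Ugp2 averaged 280.2 ± 74.1 CPM, against 559 ± 249 CPM in EF livers (SD, n = 5 each), with overlapping values and a log2 fold change of -0.996 ± 0.32 (adjusted p = 0.0181). That call was lost without EF 2 (0.0856) and LPS_EF 6 (0.0505) and in fits to log2(TPM + 1) (0.0804) and log2(TPM + 0.1) (0.0769). In LPS_EF_PF against EF_PF the log2 fold change of Ugp2 was -0.77 ± 0.34 (adjusted p = 0.0724), and in LPS_EF_RD against EF_RD -0.38 ± 0.33 (adjusted p = 0.432), neither of them called. The first of these was called with only the 2 groups fitted (log2 fold change -0.75, adjusted p = 0.0129). It was also called without EF_RD 1, LPS 3 and control 5 (adjusted p = 0.0478), which are in neither of its groups. EF_RD livers were split, with 174, 630.3, 286 and 645 CPM.

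Gbe1, the branching enzyme, had the lowest adjusted p of the 9 genes in LPS_EF_PF against EF_PF and in LPS_EF against EF. It had 106, 158, 83.1, 133 and 89.8 CPM in LPS livers, against 397, 221, 221, 263 and 339.7 CPM in control livers (log2 fold change -1.34 ± 0.25, adjusted p = 1.10e-04). It had 77.5, 83.5, 76.1 and 66.6 CPM in LPS_EF_PF livers, against 246, 186, 285, 207 and 222 CPM in EF_PF livers (log2 fold change -1.59 ± 0.27, adjusted p = 3.52e-05). Neither pair of groups overlapped, and the second was a 3.02-fold difference. In LPS_EF livers it averaged 116 ± 45.7 CPM, against 263 ± 87.1 CPM in EF livers (log2 fold change -1.18 ± 0.25, adjusted p = 6.18e-04). In LPS_EF_RD livers it had 87.8, 113, 139, 193 and 78.5 CPM, against 156, 173, 179 and 174 CPM in EF_RD livers, and was not called (log2 fold change -0.48 ± 0.26, adjusted p = 0.176). The one LPS_EF_RD value above the EF_RD range is that of LPS_EF_RD 6, and without this library the log2 fold change was -0.70 (adjusted p = 0.0368). With LPS_EF 7 left out as well, it was also -0.70 (adjusted p = 0.0264).

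Gys2, the liver glycogen synthase itself, showed no called difference in any of the 17 comparisons. It had 93.0, 90.5, 51.2, 95.6 and 90.3 CPM in LPS livers, against 76.6, 102, 57.7, 96.4 and 65.4 CPM in control livers, with a log2 fold change of 0.08 ± 0.21 (adjusted p = 0.797, 95% interval -0.34 to 0.50). The sign of this small value depended on single libraries, since it was -0.02 without control 5. The highest group means were 130.2 ± 32.6 CPM in EF livers and 118 ± 30.3 CPM in LPS_EF livers, against 79.7 ± 19.3 CPM in control livers (SD, n = 5 each). EF livers had 186, 130.4, 107, 112 and 116 CPM, all above the control values, with a log2 fold change of 0.71 ± 0.21 and an adjusted p of 0.0955 in EF against control. In EF_PF and EF_RD livers Gys2 averaged 82.8 ± 10.01 CPM (n = 5) and 80.8 ± 13.5 CPM (n = 4), each below the EF range without overlap. The log2 fold change was -0.65 ± 0.21 for EF_PF against EF (adjusted p = 0.170) and -0.69 ± 0.22 for EF_RD against EF (adjusted p = 0.129), neither called.

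On the breakdown side, Pygl was lower with LPS in 3 of the 4 regimens. It had 149.9, 198, 209.6, 178 and 199 CPM in LPS livers, against 446, 298, 345, 279 and 432 CPM in control livers. The ranges did not overlap (log2 fold change -0.95 ± 0.17, adjusted p = 8.73e-05). It had 194, 223, 179 and 169 CPM in LPS_EF_PF livers, against 385, 274, 377, 284 and 343 CPM in EF_PF livers, again apart (log2 fold change -0.80 ± 0.18, adjusted p = 9.74e-04). In LPS_EF livers it had 223, 166, 184, 139 and 315 CPM, against 258, 351, 389, 364 and 261 CPM in EF livers, and the value within the EF range is that of LPS_EF 7 (log2 fold change -0.66 ± 0.17, adjusted p = 0.00397). With only these 2 groups fitted, the last call was lost (adjusted p = 0.0591). In LPS_EF_RD livers Pygl averaged 227 ± 25.2 CPM (n = 5), against 265 ± 50.6 CPM in EF_RD livers (n = 4), and was not called (log2 fold change -0.22 ± 0.18, adjusted p = 0.389). Of the 9 genes Pygl varied least between replicates, with a within-group SD of 0.28 in log2 CPM.

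The phosphatase-targeting subunits were the most variable members. The within-group SD of log2 CPM was 0.86 for Ppp1r3g, 0.75 for Ppp1r3c and 0.71 for Ppp1r3b, at the 95.5th, 93.0th and 91.9th percentile of all tested genes, whose median SD was 0.25. The other members lay between the 53.8th and 81.9th percentile. Ppp1r3b, the main glycogen-targeting subunit of the liver, had 39.2, 46.8, 48.4 and 42.8 CPM in LPS_EF_PF livers, against 171, 197, 226, 165 and 219 CPM in EF_PF livers. This was the largest fold among its LPS comparisons, 4.41-fold lower, with the groups far apart (log2 fold change -2.14 ± 0.49, adjusted p = 8.99e-04). It had 51.9, 111, 92.3, 75.0 and 53.1 CPM in LPS livers, against 287, 57.7, 183, 155 and 163 CPM in control livers. Control 4 lies within the LPS range, and the call (log2 fold change -1.14 ± 0.44, adjusted p = 0.0385) is close to the threshold. It was lost without control 3 (0.130), control 5 (0.0574), control 7 (0.0520), LPS 1 (0.0857), LPS 4 (0.0607) and LPS 5 (0.0823), with the adjusted p in brackets, under 5 other choices of scaling, filter, method or unit, with adjusted p from 0.0534 without a count filter to 0.09998 on log2(TPM + 1), and without EF_RD 1, LPS 3 and control 5 together (0.0643).

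In LPS_EF livers Ppp1r3b had 83.6, 58.7, 77.0, 50.9 and 182 CPM, against 69.8, 201, 242, 199 and 147 CPM in EF livers, and was not called (log2 fold change -0.93 ± 0.43, adjusted p = 0.106). The highest LPS_EF value is that of LPS_EF 7 and the lowest EF value that of EF 1. The gene was called without LPS_EF 7 (log2 fold change -1.35, adjusted p = 0.0193) or without EF 1 (-1.12, adjusted p = 0.0476). It was also called without LPS_EF 7 and LPS_EF_RD 6 together (-1.34, adjusted p = 0.0157). In LPS_EF_RD livers it had 55.9, 35.8, 79.4, 159 and 126 CPM, against 62.0, 46.8, 246 and 42.2 CPM in EF_RD livers, where EF_RD 3 stands alone above the rest of its group.

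Ppp1r3c, a broadly expressed targeting subunit, had 64.5, 54.2, 55.6 and 72.4 CPM in LPS_EF_PF livers, against 131, 182, 249, 177 and 291 CPM in EF_PF livers, and fell without overlap (log2 fold change -1.74 ± 0.49, adjusted p = 0.00611). It had 36.6, 105, 98.6, 62.0 and 95.1 CPM in LPS livers, against 261, 85.8, 94.6, 177 and 97.4 CPM in control livers, and the groups overlapped (log2 fold change -0.85 ± 0.45, adjusted p = 0.135). The EF group was the widest, with 33.0, 353, 121, 119 and 155 CPM, and LPS_EF livers had 106, 54.3, 148, 49.0 and 134 CPM (log2 fold change of LPS_EF against EF -0.67 ± 0.44, adjusted p = 0.272). Without EF 2 that log2 fold change was -0.12 (adjusted p = 0.870). EF 1 and EF 2 hold the lowest and the highest Ppp1r3c of all 38 libraries. Ppp1r3c and Ppp1r3b varied together among replicates: the correlation of their deviations from the group means was 0.72 over the 38 libraries, given as a description of libraries that share groups. EF_RD 3 was the highest EF_RD library in both genes and LPS_EF_RD 6 the highest LPS_EF_RD library in both, whereas EF 1 was the lowest EF library in both.

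**Figure D3:**
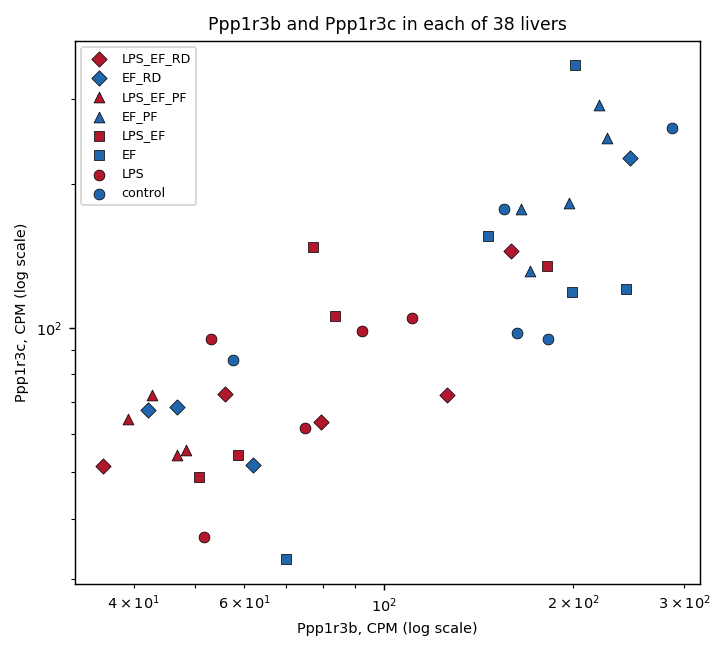
Ppp1r3b on the horizontal and Ppp1r3c on the vertical axis, both in CPM on log scales, with 1 point per library; red marks LPS and the shape marks the gavage regimen. The 4 LPS_EF_PF libraries lie at the low left, at 39.2 to 48.4 CPM of Ppp1r3b, and the 5 EF_PF libraries at the upper right, at 165 to 226 CPM.

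Ppp1r3g, a subunit that in mouse liver responds to fasting and feeding, set the control livers apart from every other group. It had 3.40, 8.78, 3.21, 6.22 and 2.22 CPM in control livers, from 51 to 229 read pairs. In EF_RD livers it had 0.303, 0.579, 0 and 0.847 CPM, in EF_PF livers 1.73, 0.616, 0.519, 1.08 and 0.612 CPM, in EF livers 1.09, 1.499, 0.258, 0.867 and 0.507 CPM and in LPS livers 0.555, 1.02, 0.407, 0.390 and 1.52 CPM. All 33 libraries outside the control group lay under the lowest control library, with a highest value of 1.73 CPM against 2.22 CPM. EF_RD 3 had 0 read pairs, and a count of 0 there allows a level of up to 0.131 CPM (3 counts of the library's total). The gene was called lower in EF_RD against control (log2 fold change -3.43 ± 0.61, adjusted p = 0.00351), in EF_PF against control (-2.37 ± 0.52, adjusted p = 0.0206), in EF against control (-2.50 ± 0.52, adjusted p = 0.0107) and in LPS against control (-2.62 ± 0.52, adjusted p = 2.47e-04). These 4 comparisons share the 5 control libraries. Without control 4, the highest of them, the EF log2 fold change was -2.16 (adjusted p = 0.0544) and the EF_PF log2 fold change -2.03 (adjusted p = 0.0880).

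The EF_PF call on Ppp1r3g was also lost without EF_PF 2 (0.0619), EF_PF 3 (0.0641), EF_PF 5 (0.0562) and EF_PF 6 (0.0571), with the adjusted p in brackets. With only the 2 groups fitted, the calls were lost in EF against control (adjusted p = 0.0587) and in EF_RD against control (0.0913), at log2 fold changes of -2.51 and -3.41. Among rats given extract, this gene was not called in any comparison of LPS with no LPS. The log2 fold change was -0.25 ± 0.64 in LPS_EF_RD against EF_RD (adjusted p = 0.812), -0.77 ± 0.58 in LPS_EF_PF against EF_PF (adjusted p = 0.307) and -1.30 ± 0.58 in LPS_EF against EF (adjusted p = 0.0890), from means of 0.339 to 0.912 CPM.

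Without LPS, the extracts moved few members. In EF_RD against control, 2 of the 9 genes were called, Ppp1r3g and Pklr, both lower, where 1.52% of all genes were called and 0.663% called lower. In EF_PF against control and in EF against control, Ppp1r3g was the 1 gene called, against 0.622% and 0.92% of all genes, of which 0.176% and 0.264% were lower. Gbe1 had a log2 fold change of -0.76 ± 0.26 in EF_RD against control without overlap, but its adjusted p was 0.132. Ugp2 had -0.87 ± 0.34 in EF_RD against control (adjusted p = 0.189). For what PF and RD added to EF, 0 of 9 were called in edgeR, DESeq2 or voom. After adjustment, 0.162% of all genes were called in EF_PF against EF and 0.724% in EF_RD against EF. At an unadjusted p under 0.05, EF_PF against EF had 1 of the 9 genes, where 12.3% of all genes passed, and EF_RD against EF had 3, where 14.6% passed. Pklr had a log2 fold change of -0.91 ± 0.28 in EF_RD against EF (adjusted p = 0.114), with no overlap, and Ppp1r3b, at -0.79 ± 0.46 (adjusted p = 0.443), was called there without EF_RD 3 (-1.77, adjusted p = 0.0489).

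Among LPS rats, no extract regimen gave a called member in edgeR, DESeq2 or voom. Of all genes, 0.0135% were called after adjustment in LPS_EF_RD against LPS, 0.0406% in LPS_EF_PF against LPS, 0.108% in LPS_EF against LPS, 0% in LPS_EF_RD against LPS_EF and 0.00676% in LPS_EF_PF against LPS_EF. At an unadjusted p under 0.05 stood 0 of the 9 genes in LPS_EF_RD against LPS, where 7.64% of all genes passed, 2 in LPS_EF_PF against LPS, where 6.03% passed, and 3 in LPS_EF against LPS, where 9.82% passed. In LPS_EF_RD against LPS_EF there were 0 such genes, against 2.79% of all genes, and in LPS_EF_PF against LPS_EF 2, against 8.15%. The 3 genes of LPS_EF against LPS were Gckr at 0.52 ± 0.25 (adjusted p = 0.507), Gys2 at 0.49 ± 0.21 (0.410) and Ppp1r3g at -1.18 ± 0.58 (0.503) on the log2 scale. Without LPS_EF 7, the library with low acute-phase genes, the value of Gckr was 0.17 (adjusted p = 0.958). Ppp1r3b in LPS_EF_PF livers lay under every LPS value, with a log2 fold change of -0.79 ± 0.46 (adjusted p = 0.879).

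Whether the LPS difference itself changed with extract was tested as an interaction. None of the 9 genes was called in edgeR, DESeq2 or voom for LPS by EF_RD, LPS by EF_PF or LPS by EF, where 0.128%, 0.0812% and 0.108% of all genes were called. At an unadjusted p under 0.05 there were 4, 1 and 0 of the 9 genes, and 7.5%, 4.86% and 6.87% of all genes. For LPS by EF_RD all 9 estimates were above 0, that is, a smaller fall or a larger rise with LPS under EF_RD than without extract. The estimates were 2.37 ± 0.83 for Ppp1r3g (adjusted p = 0.454), 0.99 ± 0.38 for Pklr (0.526), 0.86 ± 0.36 for Gbe1 (0.589) and 0.72 ± 0.25 for Pygl (0.437). The 9 share the same 19 libraries, so their common sign is a description. A difference between the regimens in the response of these genes to LPS was therefore not shown, although their calls differ.

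Markers of hepatocytes and of other cell types moved with LPS as well. The summed level of 10 hepatocyte markers was 107269 to 138788 CPM in LPS livers, against 154680.2 to 190377 CPM in control livers. Alb alone made up much of these sums, with 63186 to 90252 CPM in LPS livers and 93251 to 128705 CPM in control livers. Of the 10 markers, 8 were called lower and none higher, where 18.1% of all genes were called lower. Called lower were 1 of 10 in LPS_EF_RD against EF_RD, 9 in LPS_EF_PF against EF_PF and 2 in LPS_EF against EF. Of all genes, 10.7%, 17.3% and 14.5% were called lower there, so that the first and last counts are near the background. The 12 neutrophil and monocyte markers summed to 132 to 196 CPM in LPS livers, against 8.34 to 29.999 CPM in control livers, with none of them at 0 in an LPS library and at most 2 at 0 in a control library. Kupffer cell markers summed to 499 to 757 CPM in LPS livers, against 282 to 552 CPM in control livers, and 5 of 10 were called higher, where 36.8% of all genes were called in either direction. Endothelial markers summed to 425 to 535 CPM in LPS livers, against 175 to 409.9 CPM in control livers. The part of these shifts in the lower levels of the glycogen genes was not tested.

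Genes of the same pathways that are not members were read from 2 lists, of 25 glycogen genes and 25 glycolysis genes, of which 22 and 24 were tested. In LPS against control, 5 glycogen genes were called higher and 3 lower, and 6 glycolysis genes higher and 5 lower, with list medians of 0.16 and 0.08 on the log2 scale, against -0.002 over all genes. These are 36.4% of the tested glycogen genes and 45.8% of the glycolysis genes, against 36.8% of all genes, so that the glycogen share is at the background. Without LPS_EF 7 and LPS_EF_RD 6, which are in neither of these groups, the counts were 5 higher and 5 lower for glycogen and 6 and 6 for glycolysis. Without EF_RD 1, LPS 3 and control 5 the glycolysis counts were 6 higher and 4 lower. Pygb, the brain form of the phosphorylase, rose to 16.3 ± 1.96 CPM in LPS livers, against 7.55 ± 2.25 CPM in control livers (SD; log2 fold change 1.11 ± 0.22, adjusted p = 2.55e-04). On the log2 scale, Pgm2 rose by 0.87 ± 0.17, adjusted p = 2.20e-04, and Pgm1, of the same phosphoglucomutase family, by 0.37 ± 0.14, adjusted p = 0.0345. Phkb, a subunit of phosphorylase kinase, had a log2 fold change of -0.50 ± 0.12, adjusted p = 0.00213, Ppp1cb, a catalytic subunit of protein phosphatase 1, -0.45 ± 0.09, adjusted p = 2.20e-04, and Gaa, the lysosomal glucosidase, -0.40 ± 0.10, adjusted p = 0.00320. In glycolysis, the hexokinase gene Hk2 rose by 2.55 ± 0.52, adjusted p = 3.34e-04, Pkm, the pyruvate kinase of most tissues outside liver, by 2.31 ± 0.49, adjusted p = 5.05e-04, and Pfkfb4, which makes the activator of phosphofructokinase, by 1.76 ± 0.40, adjusted p = 9.30e-04. Pfkfb1, the liver form of that enzyme, had -1.25 ± 0.31, adjusted p = 0.00197, and the fructose kinase Khk -0.82 ± 0.16, adjusted p = 1.94e-04.

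In LPS_EF_PF against EF_PF the counts were 4 higher and 5 lower for glycogen and 8 higher and 7 lower for glycolysis, with list medians of -0.09 and 0.14, and the shares called were 40.9% and 62.5%, against 36.5% of all genes. Higher were Pygb (1.48 ± 0.23, adjusted p = 1.69e-05), Pgm2 (1.05 ± 0.18, adjusted p = 4.22e-05), the phosphatase-targeting subunit Ppp1r3d (0.53 ± 0.18, adjusted p = 0.0183), Pkm (2.88 ± 0.52, adjusted p = 7.14e-05), Hk2 (2.33 ± 0.53, adjusted p = 8.83e-04) and Pfkfb4 (1.31 ± 0.38, adjusted p = 0.00696). Lower were the glycogen-binding protein gene Stbd1 (-0.44 ± 0.15, adjusted p = 0.0225), Phkb (-0.39 ± 0.13, adjusted p = 0.0201), Gaa (-0.30 ± 0.11, adjusted p = 0.0346), Pfkfb1 (-2.34 ± 0.35, adjusted p = 8.05e-06), the glucose transporter Slc2a2 (-0.99 ± 0.26, adjusted p = 0.00339) and Khk (-0.95 ± 0.17, adjusted p = 7.14e-05). Without EF_RD 1, LPS 3 and control 5 the counts were 5 higher and 5 lower for glycogen and 9 and 7 for glycolysis. Without LPS_EF 7 and LPS_EF_RD 6 the glycolysis counts were 7 and 7. In LPS_EF against EF they were 4 higher and 5 lower for glycogen and 5 higher and 3 lower for glycolysis, with medians of -0.04 and 0.09, and shares of 40.9% and 33.3%, against 29.1% of all genes. Higher were Pygb (1.15 ± 0.23, adjusted p = 3.43e-04), Pgm2 (0.82 ± 0.17, adjusted p = 6.55e-04), Gys1, the muscle form of the synthase (0.81 ± 0.28, adjusted p = 0.0284), Pkm (1.997 ± 0.49, adjusted p = 0.00261), Hk2 (1.30 ± 0.50, adjusted p = 0.0491) and the hexokinase gene Hk1 (1.20 ± 0.21, adjusted p = 1.02e-04). Among the lower genes were Stbd1 (-0.42 ± 0.14, adjusted p = 0.0261), Phkb (-0.37 ± 0.12, adjusted p = 0.0245), Khk (-0.44 ± 0.16, adjusted p = 0.0346) and the phosphoglycerate kinase gene Pgk1 (-0.32 ± 0.12, adjusted p = 0.0342). Without LPS_EF 7 and LPS_EF_RD 6 the glycolysis counts were 6 higher and 7 lower, and Stbd1 was not called. Without EF_RD 1, LPS 3 and control 5 the glycolysis counts were 6 higher and 3 lower, and the glycogen counts 3 higher and 5 lower.

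In LPS_EF_RD against EF_RD, 3 glycogen genes were called higher and 5 lower, and 4 glycolysis genes higher and 1 lower, with medians of -0.08 and 0.20, and shares of 36.4% and 20.8%, against 23.5% of all genes. Higher were Pygb (1.11 ± 0.24, adjusted p = 0.00140), Pgm2 (0.77 ± 0.18, adjusted p = 0.00304), Ppp1ca, a catalytic subunit of protein phosphatase 1 (0.35 ± 0.08, adjusted p = 0.00363), the hexokinases Hk3 (1.27 ± 0.45, adjusted p = 0.0369) and Hk1 (1.02 ± 0.22, adjusted p = 0.00150), and the glucose phosphate isomerase Gpi (0.41 ± 0.15, adjusted p = 0.0435). Lower were Phkb (-0.60 ± 0.13, adjusted p = 0.00165), the phosphorylase kinase subunit Phkg1 (-1.81 ± 0.62, adjusted p = 0.0335), Pygm (-5.02 ± 1.04, adjusted p = 9.76e-04) and Pfkm (-2.22 ± 0.57, adjusted p = 0.00515), the last 2 being the phosphorylase and phosphofructokinase of muscle, and EF_RD 1 is the library with muscle RNA. Without EF_RD 1, LPS 3 and control 5 the counts were 3 higher and 2 lower for glycogen and 7 higher and 0 lower for glycolysis, and without LPS_EF 7 and LPS_EF_RD 6 they were 3 and 4, and 6 and 5. In the first of these fits Pkm and Hk2 were called higher, while Hk3, Phkg1, Pygm and Pfkm were not called. In the second Pkm was called higher, while Gpi and Phkg1 were not called. Pkm had 89.2 CPM in EF_RD 1, against 11.1, 13.6 and 11.9 CPM in EF_RD 2, EF_RD 3 and EF_RD 4. In EF_RD against control, Pygm (5.18 ± 1.05, adjusted p = 0.00794), Gys1 (1.25 ± 0.29, adjusted p = 0.0221), Pfkm (2.13 ± 0.57, adjusted p = 0.0462) and Aldoa (1.58 ± 0.39, adjusted p = 0.0309) were called higher, and in EF_RD against EF so were Pygm (5.63 ± 1.09, adjusted p = 0.00957), Gys1 (1.40 ± 0.29, adjusted p = 0.0155) and Pfkm (2.36 ± 0.57, adjusted p = 0.0420). The interaction of LPS by EF_RD had 1 call, Pygm (-6.71 ± 1.41, adjusted p = 0.0312). No gene of either list was called in these 3 comparisons without EF_RD 1, LPS 3 and control 5. The interaction call was also lost without LPS_EF 7 and LPS_EF_RD 6. In EF_PF against control and in EF against control, 0 genes of either list were called in edgeR.

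Beside the liver forms, the other forms of 3 of these enzymes were set on the per-length scale, as medians over the 19 LPS libraries and the 19 libraries without LPS. For pyruvate kinase, Pkm was 49.96 TPM with LPS, against 7.52 TPM without, beside 134 TPM of Pklr with LPS and 101 TPM without. The liver form thus stood higher on both sides, by a smaller margin with LPS. For the phosphorylase, Pygb was 7.21 TPM with LPS, against 2.62 TPM without, and Pygl 142 TPM with LPS, against 226 TPM without. For glycogen synthase, Gys1 was 2.51 TPM with LPS, against 1.48 TPM without, and Gys2 68.3 TPM with LPS, against 60.6 TPM without. Pygm was 1.04 TPM with LPS, against 0.724 TPM without, but reached 137 TPM in EF_RD 1 and 12.6 TPM in LPS 3.

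**Figure D4:**
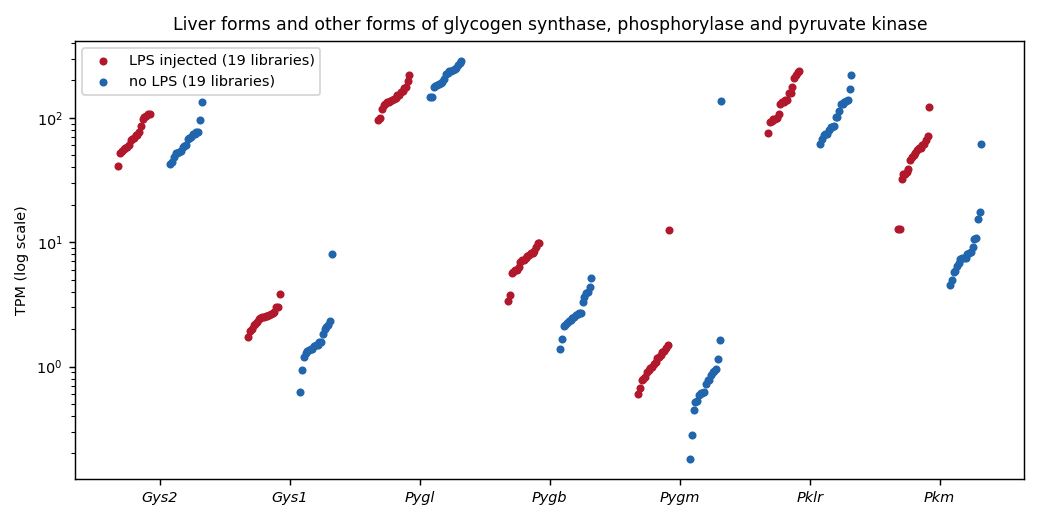
Level of the liver forms Gys2, Pygl and Pklr and of the other forms of the same enzymes in each library, in TPM on a log scale; 19 LPS libraries in red stand left of 19 libraries without LPS in blue, sorted by level. Pygb and Pkm were higher with LPS, at medians of 7.21 and 49.96 TPM against 2.62 and 7.52 TPM, and the lone high Pygm points are EF_RD 1 and LPS 3.

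Outside the 9 genes, the genes with the most similar pattern were taken by the Pearson correlation of log2 CPM over all 38 libraries, which share groups and the LPS difference; the values are descriptions. For Gckr they were Etfdh (0.93), Kynu (0.92) and Slc17a1 (0.92), for Gbe1 Cyp39a1 (0.94), Igf2bp3 (0.92) and Cat (0.91) and for Pygl Amy1a (0.90) and Trap1 (0.89). For Ugp2 they were St13 (0.87), Gch1 (0.84) and Nadk2 (0.82), for Ppp1r3b Ppp1r15b (0.84), Amy1a (0.84) and Glud1 (0.83) and for Ppp1r3c Rhou (0.81), Csnk1d (0.81) and Bcl6b (0.80). The closest matches of the other 3 members were looser, at 0.77 or less. For Gys2 they were Vkorc1l1 (0.68), Ciart (0.67) and Slc20a1 (0.67), for Ppp1r3g Cgrrf1 (0.75), Slc6a9 (0.72) and Heca (0.69) and for Pklr Hcn3 (0.77), Nln (0.74) and Slc2a5 (0.72). The 3′ end of Hcn3, on the opposite strand, lies 817 bases beyond the end of Pklr (rn6, chr2:188458851-188471916), and counting used no strand, so reads that run past the end of Pklr cannot be told apart from those of Hcn3. Within groups, the deviations of Gckr and Gys2 from their group means ran opposite to each other, with a correlation of -0.79 over the 38 libraries, a pair noticed after its values were seen.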

How the data were processed

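RNA of 38 rat livers was sequenced. The authors' counts are of read pairs per gene name, made with featureCounts 2.0.6 on an rn6 annotation, per the file headers; neither strand nor multiply mapping reads were set there. STAR, RSEM and the build mRatBN7.2 are in the submitters' processing notes. The deposited TPM values equal those counts divided by gene length and scaled per library, to within 0.135% over 31011 names. Rows had 0 columns of other series, and the 38 columns hold 19716622 to 35835012 read pairs; counting error is small for all members but Ppp1r3g, and read pairs without molecular identifiers are not independent molecules.

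The counts went into edgeR 4.0.16 under R 4.3.3 (filterByExpr, minimum count 10 and minimum total count 15; TMM; glmQLFit and glmQLFTest with 1 mean per group over all 38 libraries), with Benjamini-Hochberg adjustment over 14786 genes in each of 17 comparisons. Tests are two-sided and a call is an adjusted p under 0.05. A log2 fold change is the first-named group over the second, and an interaction is the LPS difference with the extract minus that without. Intervals are 95%. The method was tested on counts simulated for LPS against control only, with the same relative spread for every gene. That test does not cover members as variable as Ppp1r3b, Ppp1r3c and Ppp1r3g. Replicates differed beyond counting noise, with a chi-square per degree of freedom of at least 5.92 over 72 pairs.

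Alternatives were DESeq2 1.42.0, limma 3.58.1 (voom, and log2(TPM + 1) or log2(TPM + 0.1)), other scalings, no filter, only the groups compared, the replicate number as a block and each library left out; 2 omissions of several libraries were chosen after seeing the data. The 9 genes and the lists were chosen with earlier results of these data known. Named beyond them were the 3 genes most correlated with each member, leaving out provisional names, and the called pathway genes with the 3 largest changes each way per list and comparison. Some genes that these rules select are not reported here.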

Additional observations from a re-analysis of the deposited data

Results flagged for a closer look

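In 72 tests of a group's highest or lowest library, 8 stood apart by Dixon's 95% limit. For normally distributed values, chance alone reaches it in about 1 of 20 groups. The limit was applied to CPM without a log, and the 72 tests reuse the same 38 libraries, so that rate is only a rough guide. Gckr had 72.5 CPM in LPS_EF_PF 4, against 133 to 140.3 CPM in the other LPS_EF_PF livers, and the same library had 129 CPM of Gys2, against 69.3 to 75.3 CPM. Pklr had 152 CPM in EF 5, against 219.8 to 246 CPM in the other EF livers. Gys2 had 51.2 CPM in LPS 3, the LPS library with muscle and pancreas RNA, against 90.3 to 95.6 CPM in the other LPS livers. EF_RD 3 was high in both broadly varying targeting subunits, with 246 CPM of Ppp1r3b, against 42.2 to 62.0 CPM in the other EF_RD livers, and 226 CPM of Ppp1r3c, against 51.8 to 68.6 CPM. The 2 LPS libraries with low acute-phase genes passed the limit in 1 of them each. Ppp1r3b had 182 CPM in LPS_EF 7, against 50.9 to 83.6 CPM in the other LPS_EF livers. Ppp1r3c had 145 CPM in LPS_EF_RD 6, against 51.6 to 72.8 CPM in the other LPS_EF_RD livers. LPS_EF_RD 6 was also the highest of its group in Ppp1r3b, at 159 CPM. LPS_EF 7 had 134 CPM of Ppp1r3c, under LPS_EF 5 at 148 CPM. What sets these libraries apart was not tested.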

How the results depend on the processing

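For the called results, 211 values from other settings kept their direction and call and 20 lost the call; with 1 library left out, 172 kept it and 29 lost it. No called result changed direction in any of these. The number of genes called in LPS_EF against EF was 2 with only the groups compared fitted. In EF against control it was 0 in that fit. In EF_RD against control it was 0 in that fit and 1 under total-count scaling, voom, log2(TPM + 1), log2(TPM + 0.1) and without EF_RD 1, LPS 3 and control 5. With 1 library left out, the number ran from 2 to 5 in LPS_EF against EF, from 1 to 3 in LPS_EF_RD against EF_RD, from 0 to 1 in EF against control, EF_PF against control and EF_RD against EF, from 1 to 2 in EF_RD against control, from 5 to 6 in LPS against control, and stayed at 5 in LPS_EF_PF against EF_PF. Among values that were not called, Gys2 in LPS against control reversed to -0.0379 with the replicate block and to -0.0185 without control 5, where it otherwise reached 0.21. Pklr in LPS against control ran from -0.0153 without control 6 to 0.38 without control 3. The cause of these changes was not tested.

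The replicate numbers in the labels were not tied to litters, batches or days, and no comparison with 3 or more same-numbered pairs had all of them correlate above 0.1 or every sample correlate best with its own number. In EF_RD against control, the 2 same-numbered pairs correlated at 0.16 and 0.20, against a median of -0.03 for the other pairs. In EF_RD against EF, the 4 same-numbered pairs ran from 0.03 to 0.45. With the replicate block, 5 genes were called in LPS against control, where Ppp1r3b lost its call (-0.71, adjusted p = 0.201), and 5 in LPS_EF against EF, where Ppp1r3b gained one (-1.36, adjusted p = 0.0114). Other counts were equal. Groups of 4 or 5 livers limit what could be called, and Ppp1r3g, with 0 to 42 read pairs outside the control livers, is the member whose values depth limits most.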

Other observations

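Other targeting subunits of protein phosphatase 1 were at low levels in these livers. Ppp1r3d had 1.02 to 3.01 TPM over the 38 libraries, with a median of 1.89 TPM. Ppp1r3e had 0.066 to 0.839 TPM, with a median of 0.326 TPM. Ppp1r3a, the muscle subunit, was listed at 0 TPM in most libraries and was highest in EF_RD 1, at 3.26 TPM, and LPS 3, at 0.304 TPM, the 2 libraries with muscle RNA.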
